A study of Homo sapiens with 6 samples.

Results

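The mitochondrial genome was described gene by gene in chromatin immunoprecipitation and sequencing (ChIP-seq) of TAF2, from a HepG2 clone that carries TAF2 with a V5 peptide tag. HepG2 cells are a long-established human line grown from a liver tumour. Members were all 37 genes of the mitochondrial chromosome, of 59712 annotated genes with a position, together with the control region, and every peak that the deposited lists place on that chromosome. There were 13 protein-coding, 22 tRNA and 2 rRNA genes. The mitochondrial peaks numbered 47 of 6043 in the 3 V5 libraries.

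All 6 libraries of the series came from this 1 clone, so all carry the tagged TAF2, and no other treatment is named. The V5 group consists of 3 libraries immunoprecipitated with V5 antibody. The control group consists of 3 libraries that the labels call input in one field and IgG in another, and their peaks or signal were not analysed here. No separate values from control samples therefore stand beside those below. Whether the authors' folds and q were computed against these control libraries is not named. The labels do not say whether libraries of a group came from separate cultures, and as only 1 group had values, no test between groups was made.

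The mitochondrial genome is a small circular DNA held in many copies in a cell. The control region contains its promoters for both strands, and from them the mitochondrial RNA polymerase POLRMT, with TFAM and TFB2M, makes long transcripts that are cut at the tRNAs. The protein-coding genes all encode subunits of oxidative phosphorylation. TAF2, in contrast, is known as a subunit of TFIID, a complex of RNA polymerase II promoters in the nucleus. Genes are named here with the prefix MT, and the RefSeq table of GRCh38.p14 lists MT-CO1, MT-CO2, MT-CO3 and MT-CYB as COX1, COX2, COX3 and CYTB. All positions are on chromosome M as a genome browser counts them, and each gene is a single unspliced stretch in that table.

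Peaks were spread along the mitochondrial genome in each library, over 49.0, 77.7 and 49.6% of its bases up to the last base under a peak in replicates 1, 2 and 3. Replicate 1 had 18 peaks over 8115 bases, replicate 2 had 13 over 12862 bases and replicate 3 had 16 over 8208 bases. Replicate 2 thus had the fewest peaks and the widest, with a median width of 892 bp against 350 bp in replicate 1 and 404 bp in replicate 3. The median width of nuclear peaks was 219.5, 223 and 222 bp in replicates 1, 2 and 3, and differed less between libraries. The mean number of mitochondrial peaks was 15.7 ± 2.52 (SD, n = 3).

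**Figure D1:**
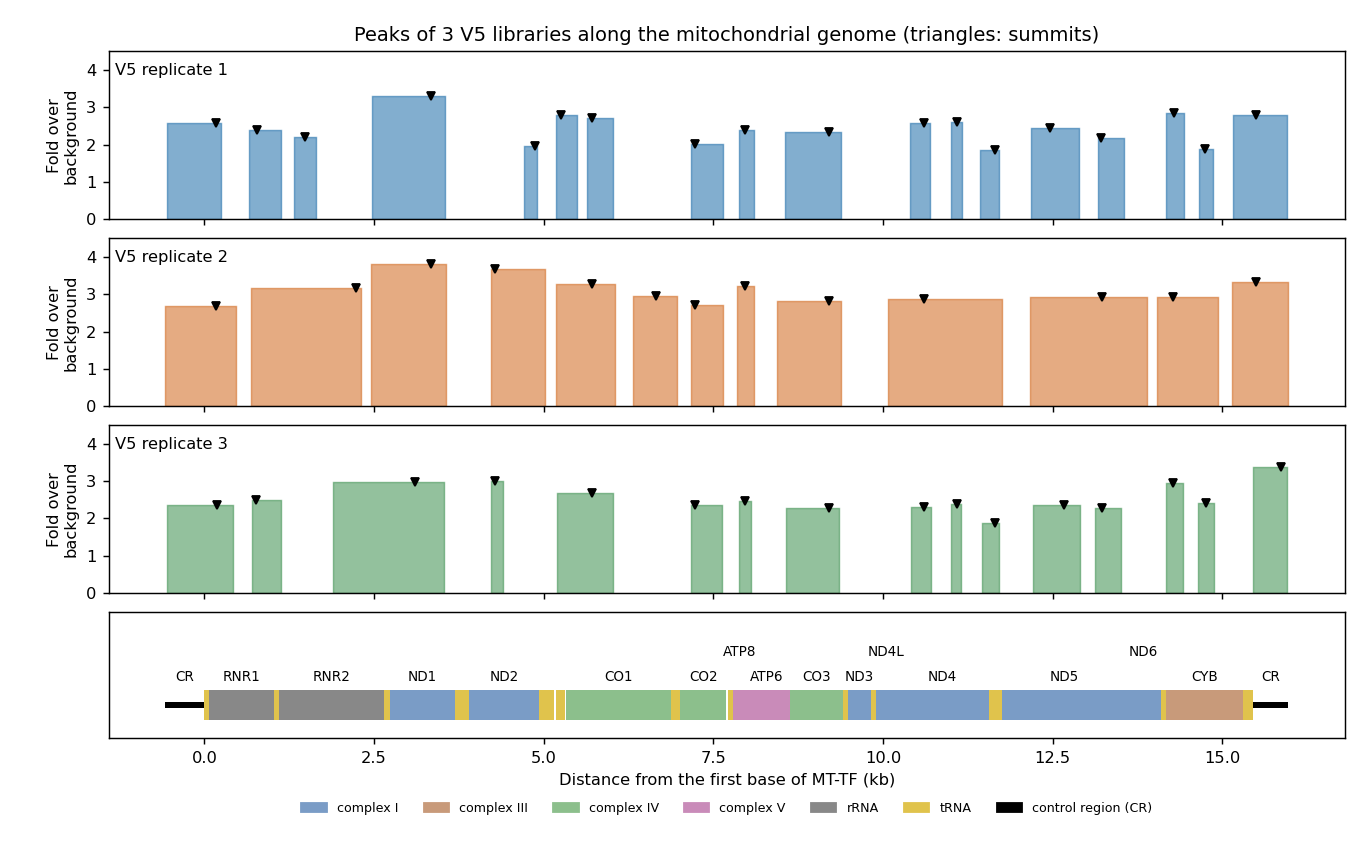
Peaks of the 3 V5 libraries along the mitochondrial genome. The x axis is the distance in kb from the first base of MT-TF, bars span each peak with the authors' fold as height, triangles mark summits, and the lowest panel shows the genes by role with the control region in black. Replicate 2 has 13 wide peaks where replicates 1 and 3 have 18 and 16, and no bar in any library stands over MT-ND3.

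Of the 16549 bases up to the last base under any peak, 6992 (42.3%) were under peaks of all 3 libraries, 2162 of 2 and 3885 of 1. The remaining 3510 bases (21.2%) were under none. Of the bases under peaks in replicate 1, 99.6% were also under peaks in replicate 2 and 86.2% in replicate 3. Of those in replicate 2, 62.9% were shared with replicate 1 and 62.7% with replicate 3. The lists of replicates 1 and 3 thus lay almost wholly within that of replicate 2. Each of the 18 peaks in replicate 1 met one in replicate 2, against 59.9% of its nuclear peaks, and 16 of 18 met one in replicate 3, against 50.8% of nuclear peaks. With this much of the genome under peaks, overlap on this chromosome is common by cover alone.

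A gene is called here when a peak overlaps its span by at least 1 base in at least 2 libraries. By this rule 22 of the 37 mitochondrial genes (59.5%) were called, against 1.53% of 59675 nuclear genes of every type. In single libraries 22, 29 and 21 of the 37 genes had a peak in replicates 1, 2 and 3. The same shares among nuclear genes were 1.5%, 2.32% and 1.87%. Of the 37 genes, 21 had a peak in all 3 libraries, 1 in 2, 7 in replicate 2 alone and 8 in none. With a margin of 1000 bp around each gene all 37 were called, so gene calls on this genome need the span itself. Without replicate 2 the count was 21, and none of the 7 genes it alone reached is among the 22. By the summit of a peak, its highest point, 13 genes were called.

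By kind, 10 of 13 protein-coding genes were called, against 3.19% of nuclear protein-coding genes. Both rRNA genes were called, against 4.08% of 49 nuclear rRNA genes. Of the 22 tRNA genes 10 were called (45.5%), against 0% of 443 nuclear tRNA genes. Mitochondrial tRNA genes were 59 to 75 bp long and sit between longer genes, and 12 of 22 lay wholly under a peak of replicate 2. Their calls therefore share peaks with their neighbours.

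The summits of the 47 peaks fell in protein-coding genes for 34 peaks, in rRNA genes for 7, in tRNA genes for 3 and in the control region for 3. The region around the control region is given first, followed by the rRNA genes and then the protein-coding genes by complex.

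The control region, which RefSeq leaves without genes, was almost wholly under peaks in every library. Before MT-TF it holds 576 bases, of which 96.4, 100 and 96.2% were under a peak in replicates 1, 2 and 3. The part after MT-TP was covered at 94.9, 100 and 96.2% of 526 bases up to the last peak base. That base, 16549, is the end of the last peak of replicate 2. No uncovered base could therefore follow that peak, and bases beyond it were not counted. Over all genes the same shares were 45.8, 76.3 and 46.5%. All 3 libraries thus agree on nearly the whole control region as counted here, and on 38.6% of the bases in genes.

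The peak after MT-TP had a fold of 2.80, 3.34 and 3.37 and a -log10 q of 23.5, 30.4 and 34.7 in replicates 1, 2 and 3. It had the highest fold of the mitochondrial peaks in replicate 3 and the third highest in replicates 1 and 2. Its summit lay at 16080 in replicate 1, 16068 in replicate 2 and 16437 in replicate 3, so replicate 3 placed it 357 bases from replicate 1. In replicates 1 and 2 this peak began inside MT-CYB, at 15730 and 15722, and in replicate 3 at 16022, in the last bases of MT-TP. This start decides in which libraries MT-TT, the threonine tRNA gene, had a peak. MT-TT was wholly covered in replicates 1 and 2, and so called, and not covered in replicate 3. MT-TP, the proline tRNA gene, was covered over 2.94% of its length in replicate 3. Positions on this circular genome are counted from inside the control region, so no listed peak can run across that point. Whether the peak after MT-TP joins the first peak of the count cannot be told from the lists. The first peak, from 22, 1 and 23 in the 3 libraries, ran through MT-TF, the phenylalanine tRNA gene, into MT-RNR1. Its summit was in MT-RNR1, at 748, 753 and 757, with folds of 2.59, 2.68 and 2.37.

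MT-RNR1, the 12S rRNA gene (648 to 1601), was covered at 57.0, 76.4 and 71.9%, averaging 68.4% ± 10.1 (SD, n = 3) over the 3 libraries. A second peak in it, across the valine tRNA gene MT-TV, had its summit at 1346 in replicate 1 (fold 2.39) and 1343 in replicate 3 (fold 2.48). In replicate 2 the peak over these bases ran on to 2882, with its only summit at 2813. MT-RNR2, the 16S rRNA gene (1671 to 3229), was covered at 34.1, 90.6 and 50.6%, and 206 of its 1559 bases (13.2%) were under peaks of all 3 libraries. Replicate 1 had a separate peak in it, from 1898 to 2220 (fold 2.21), where the wide peak of replicate 2 also lay. Replicate 3 had a peak from 2468 that ran through MT-TL1 into MT-ND1. The rRNA genes are thus called in every library while the bases covered in MT-RNR2 differ between them.

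Complex I, the NADH dehydrogenase, takes 7 subunits from the mitochondrial genome, and 4 of the 7 genes were called. MT-ND1 (3307 to 4262) had the smallest spread of cover of the 4, at 84.8, 86.6 and 83.5% (mean 85.0% ± 1.57, SD, n = 3). Its peak had the highest fold of all mitochondrial peaks in replicates 1 (3.32) and 2 (3.81) and the third highest in replicate 3 (2.98). The summit lay at 3912 in replicates 1 and 2, and at 3679 in replicate 3. This peak also took in the whole of the leucine tRNA gene MT-TL1, which holds the known binding site of the termination factor MTERF1, and the end of MT-RNR2. The stretch shared by all libraries, 3051 to 4104, was the longest of the 16 such stretches, at 1054 bp.

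MT-ND2 (4470 to 5511) had a peak in every library without a base common to all 3. Its peak lay at 5292 to 5474 in replicate 1 (fold 1.97) and at 4795 to 4979 in replicate 3 (fold 3.00), 312 bases apart. In replicate 2 a single peak from 4793 to 5597 (fold 3.69) covered both places, with its summit at 4857. The call of MT-ND2 therefore rests on different bases in replicates 1 and 3. It was the only one of the 21 genes with peaks in 3 libraries for which this held, and 20 had at least 1 common base.

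MT-ND4 (10760 to 12137) was covered at 42.7, 100 and 39.6%. Its first summit lay at 11179 in all 3 libraries, to the base, with folds of 2.59, 2.86 and 2.31. A further summit, at 11664 in replicate 1 and 11668 in replicate 3, lay under the same wide peak in replicate 2. MT-ND5 (12337 to 14148), the longest gene, was covered at 60.1, 77.3 and 58.9%. Of its summits, one was at 13785, 13801 and 13803 in replicates 1, 2 and 3, with folds of 2.17, 2.93 and 2.29. The other was at 13030 in replicate 1 and 13242 in replicate 3. Both genes held a pair of summits in replicates 1 and 3 and a single summit, under 1 wide peak, in replicate 2.

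The other 3 genes of complex I were not called. MT-ND3 (10059 to 10404) had no peak in any library and was the only protein-coding gene without one. It lay in the longest stretch without a peak, 9964 to 10650, with the tRNA genes MT-TG and MT-TR on either side. MT-ND4L (10470 to 10766) was under a peak of replicate 2 over 39.1% of its length, and MT-ND6 (14149 to 14673) under a pair of them over 71.4%, and neither was reached in replicates 1 and 3. With fold enrichments as small as these, a gene outside the list is not shown to lack signal.

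Complex III takes 1 subunit, cytochrome b, from MT-CYB (14747 to 15887). In replicates 1 and 3 the first peak in this gene was narrow and carried the strongest statistic of the genome. It was 263 bp wide with a -log10 q of 45.3 in replicate 1 and 247 bp wide with 48.3 in replicate 3, the highest value among the mitochondrial peaks of either library. In replicate 2 the peak was 892 bp wide with 40.8, second to MT-ND1 at 42.4. By fold it ranked lower, at 2.86, 2.93 and 2.95, which is rank 2, 8 and 4 in the 3 libraries. The summits at 14864, 14856 and 14851 lay within 13 bp of one another. In replicates 1 and 3 the peak began at 14748, 1 base inside the gene, and MT-TE, the glutamic acid tRNA gene just before it, had no peak in either. In replicate 2 the peak began at 14614, inside MT-ND6, and covered the whole of MT-TE. A weaker peak followed in replicates 1 and 3, with its summit at 15328 (fold 1.88) and at 15330 (fold 2.40).

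All 3 genes of complex IV, cytochrome c oxidase, were called. MT-CO3 (9207 to 9990) had the highest cover of the protein-coding genes in replicates 1 and 3, at 95.0, 96.6 and 92.5% in the 3 libraries. Its summits lay at 9775, 9780 and 9777 with folds of 2.33, 2.81 and 2.27. MT-CO2 (7586 to 8269) was covered at 68.0, 69.0 and 65.5%, with summits at 7810, 7812 and 7811 and folds of 2.03, 2.71 and 2.35. These 2 genes varied little between libraries in cover or summit. MT-CO1 (5904 to 7445) varied more, at 34.8, 82.8 and 44.7%. All 536 of its bases shared by 3 libraries lay at or before 6592, where a summit stood at 6284, 6284 and 6293. Further along the gene replicate 2 alone had a peak, 6894 to 7535, with a fold of 2.96, which ran on over MT-TS1 into MT-TD.

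Both genes of complex V, the ATP synthase, were called from peaks that overlap them both. MT-ATP8 (8366 to 8572) and MT-ATP6 (8527 to 9207) share bases, and the summit at 8544, 8540 and 8540 lay in the shared stretch. The folds of this peak were 2.40, 3.21 and 2.46. MT-ATP8 was covered at 58.5, 69.1 and 57.5%, and MT-ATP6 at 32.0, 49.8 and 23.3%. The peak of MT-CO3 also reached the end of MT-ATP6.

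**Figure D2:**
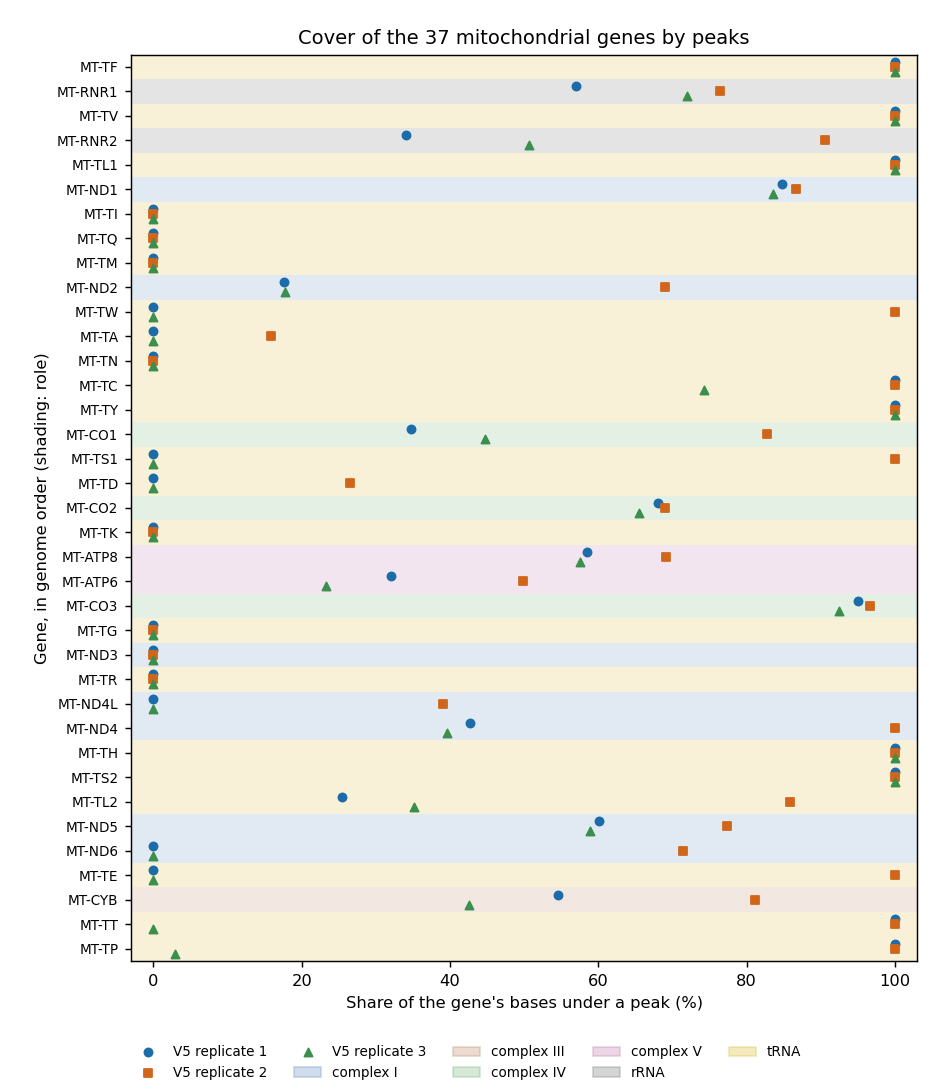
Share of each gene's bases under a peak. The x axis is percent of the gene, rows are the 37 genes in genome order shaded by role, and each marker is 1 V5 library. MT-ND1, MT-CO2 and MT-CO3 have their 3 markers close together, while MT-ND2, MT-ND4 and MT-RNR2 are covered far more in replicate 2.

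Of the tRNA genes, MT-TF, MT-TV, MT-TL1, MT-TY, MT-TH and MT-TS2 were wholly covered in all 3 libraries. Only MT-TC, the cysteine tRNA gene, and MT-TS2, a serine tRNA gene, held a summit. The MT-TC summit was found in replicate 1 alone (5824, fold 2.79). The MT-TS2 summit lay at 12225 in replicate 1 and 12220 in replicate 3, in the weakest mitochondrial peak of each library by fold (1.85 and 1.88) and by -log10 q (4.15 and 4.01). The 7 tRNA genes with no peak in any library were MT-TI, MT-TQ and MT-TM, which lie together after MT-ND1, and MT-TN, MT-TK, MT-TG and MT-TR. MT-TW, MT-TA, MT-TS1, MT-TD and MT-TE had a peak in replicate 2 alone. The spacer between MT-TN and MT-TC (5730 to 5760), where the known origin of light-strand replication lies, was covered over 9, 10 and 0 of its 31 bases.

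Most mitochondrial genes are encoded on the heavy-strand transcript, and MT-ND6 and 8 tRNA genes on the light-strand transcript. Of the 28 genes of the first kind 19 were called, and of the 9 of the second kind 3 were called (MT-TC, MT-TY and MT-TP). Peaks carry no strand, and the genes differ in length. The median length was 141 bp in the first kind and 69 bp in the second, so the counts are given side by side only. Among tRNA genes alone, 7 of 14 and 3 of 8 were called.

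Summit positions were close for part of the peaks. Of the 18 summits of replicate 1, 8 had a summit of each of the other libraries within 50 bp, and 6 within 10 bp. With replicate 3 alone, 12 of 18 lay within 50 bp. The 8 were in MT-RNR1, MT-CO1, MT-CO2, MT-ATP8 with MT-ATP6, MT-CO3, MT-ND4, MT-ND5 and MT-CYB. Between overlapping peaks of replicates 1 and 3 the median summit distance was 25 bp on the mitochondrial genome and 57 bp on nuclear chromosomes. Between replicates 1 and 2 it was 125 bp and 55 bp, where the wide peaks of replicate 2 carry 1 summit each.

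Mitochondrial peaks had low folds and high -log10 q for their lists. The fold of a peak is the authors' enrichment value, taken here as a linear ratio, and q is the adjusted p. Folds ran from 1.85 to 3.32 in replicate 1, from 2.68 to 3.81 in replicate 2 and from 1.88 to 3.37 in replicate 3. The median mitochondrial peak stood at percentile 1.69, 1.17 and 1.35 of its list by fold. By -log10 q it stood at percentile 95.1, 98.3 and 94.2. The median peak thus stood near opposite ends of each list by the 2 measures. Single peaks ranged lower by -log10 q, from percentile 41.2 in replicate 1, 96.8 in replicate 2 and 36.5 in replicate 3, while by fold none stood above percentile 4.57, 8.06 and 3.92. No mitochondrial peak of any library reached a fold of 5, while 48.4, 42.1 and 47.5% of nuclear peaks also stayed below 5.

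Nuclear peaks in the same range of folds had lower -log10 q. They numbered 37, 166 and 45 in replicates 1, 2 and 3, and their median -log10 q was 1.76, 1.74 and 1.81. The median of the mitochondrial peaks was 18.5, 29.7 and 16.3. Conversely, 57, 27 and 83 nuclear peaks had a -log10 q at or above the mitochondrial median, and their median fold was 9.23, 14.0 and 9.19. The few nuclear peaks in the mitochondrial fold range with a -log10 q at or above the mitochondrial median numbered 6, 2 and 5. They lay on chromosome 16 (46386354 to 46398824 in replicate 1) and chromosome 21 (10272473 to 10272871 in replicate 1). Nuclear peaks in that range with a -log10 q between the mitochondrial minimum and median were not counted. Of 25, 26 and 27 peaks on unplaced contigs, 13, 8 and 6 were in the same fold range, at a median -log10 q of 12.9, 13.5 and 64.2. The median fold of all contig peaks was 2.76, 3.31 and 3.84, which in replicate 3 is above the highest mitochondrial fold. The lists give neither read counts nor the background level at a peak, so the depth on the mitochondrial genome is unknown and its part in these values was not tested.

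**Figure D3:**
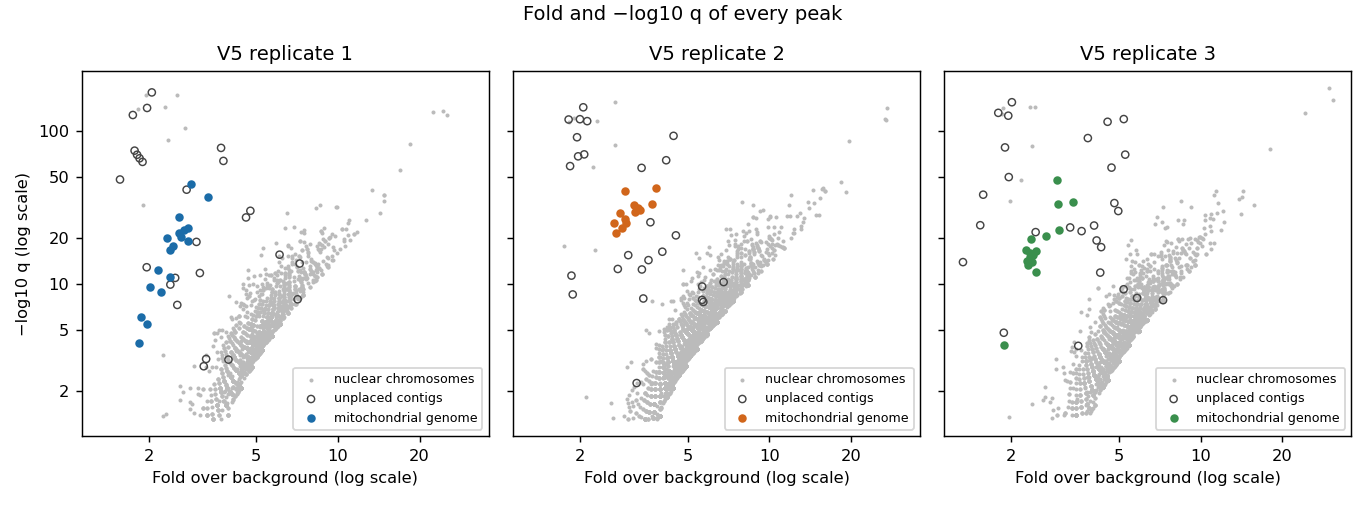
Fold (x axis, log scale) against -log10 q (y axis, log scale) of every peak in each V5 library. Grey points are peaks on nuclear chromosomes, open circles peaks on unplaced contigs and coloured points mitochondrial peaks, at folds between 1.85 and 3.81. Nuclear peaks also occur at these folds (37, 166 and 45 in replicates 1, 2 and 3), with a median -log10 q of 1.76, 1.74 and 1.81.

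In density of peaks the mitochondrial genome was near the densest nuclear places. Among nuclear windows of the same length (16549 bp) that start at a peak, none held more than 15, 14 and 11 whole peaks in replicates 1, 2 and 3, against 18, 13 and 16 on the mitochondrial genome. In bases under peaks the densest of these windows held 11579, 11803 and 11738, above the mitochondrial 8115 and 8208 of replicates 1 and 3 and below the 12862 of replicate 2. As a share of its list, the mitochondrial genome held 1.13, 0.508 and 0.848% of peaks and 1.55, 1.65 and 1.39% of bases.

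The nuclear genome holds many inserted copies of mitochondrial DNA, annotated as pseudogenes or like genes. None of 487 such copies, named for 13 protein-coding genes and MT-RNR2, had a peak in any library. Of all 15580 nuclear genes of the pseudogene type 0.0257% were called in at least 2 libraries. By that rule 0 copies were called, which is near that background. The row of 7 adjacent copies on chromosome 1 (MTND1P23 to MTCO3P12, 629062 to 634922) lay 671701 bp or more from the nearest peak. The closest peak to any copy was 3871 bp away, at MTND4P7. Whether reads that match both genomes were kept is not given in the sources used here.

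Nuclear genes that serve the mitochondrial genome were seldom called. With a margin of 1000 bp, 1 of 46 genes of mitochondrial DNA upkeep and transcription was called (2.17%), against 3.68% of all nuclear protein-coding genes. It was MGME1, a mitochondrial exonuclease gene, next to a wide peak outside its span with folds of 13.4, 14.5 and 11.2 and inside a cluster of weaker peaks. TFB1M, MTERF4, POLG2 and TK2 had a peak in 1 library each. POLRMT, TFAM and TFB2M had none. Of 82 nuclear genes for subunits of oxidative phosphorylation 1 was called (1.22%), NDUFC2 of complex I. Inside its span the highest folds were 5.53, 5.50 and 5.33, and stronger peaks of replicates 1 and 2 (6.84 and 7.47) lay 516 and 942 bp outside it. ATP5F1D of complex V had a peak in 1 library, and none of the nuclear genes listed for complexes II, III and IV had one. Both shares are near or below that of nuclear protein-coding genes as a whole, while 10 of the 13 mitochondrial genes for subunits of the same complexes were called by the narrower rule of span overlap.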

How the data were processed

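Of 6 ChIP-seq libraries, the 3 from V5 immunoprecipitation had peak lists, and groups follow the treatment label. The build was GRCh38, per the submitters' processing notes. Neither aligner nor caller, threshold or caller's control is named in those notes or the labels. There was 1 deposited list per library, in narrowPeak layout. The authors' fold is taken as a linear ratio, which is an assumption, as that layout names only an enrichment value. The -log10 p and -log10 q are the deposited values of each peak, and p was not used. The deposited score, within 1 of 10 times -log10 q, was left aside. Summits were placed by adding the deposited offset to each peak's start. Folds were compared within a list only. Depth is unknown.

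Gene spans and types came from the RefSeq gene table of GRCh38.p14. It gives no strand, so the strand of mitochondrial genes is textbook knowledge. The control region was taken as all bases outside the first and last gene. Mitochondrial sequence was not used here. Percentiles are ranks within a list. No test was run, since only 1 group had values. All 37 genes were accounted for, and nuclear genes were named when called in at least 2 libraries. TFB1M, MTERF4, POLG2, TK2 and ATP5F1D, and POLRMT, TFAM and TFB2M, were named after their values were seen. So were the summit distances of 10 and 50 bp chosen. The members and lists were chosen with earlier results of these data known. Alternatives were stricter peaks, other overlap rules, other numbers of libraries and leaving out each replicate. Scripts were first tested on simulated peaks. Python 3.11.15, numpy 2.4.6, pandas 2.3.3 and matplotlib 3.10.9 were used.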

Additional observations from a re-analysis of the deposited data

How the results depend on the processing

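Peaks with a fold of at least 5 leave 0 mitochondrial peaks per library, 0 called genes and 0 bases in at least 2 libraries, since no mitochondrial peak reaches that fold, and a rank by fold could not be computed there. Peaks with a -log10 q of at least 3 leave every mitochondrial count as it was. With the summit inside the span 13 genes were called, and with a peak within 1000 bp, a setting chosen after seeing the data, 37 were called. With at least 50% of the gene under peaks 17 mitochondrial genes were called. The 5 genes whose call changed were MT-ND2, MT-CO1, MT-ATP6, MT-ND4 and MT-TL2, so their calls depend on the rule of 1 base. A peak in any library covered 13039 bases. Ranked by -log10 q, the median percentile, averaged over libraries, was 95.8 ± 2.16 (SD, n = 3) in place of 1.40 ± 0.262 by fold. A peak in any library raised the nuclear lists from 1 to 5 genes of mitochondrial DNA upkeep and to 2 of oxidative phosphorylation, and 50% of the gene under peaks left 0 in each. Leaving out each replicate gave 21 to 22 called genes, 6992 to 8085 bases in both remaining libraries, 14.5 to 17.0 peaks per library and a percentile of 1.26 to 1.52 by fold. The lowest of these base counts, against 9154 with all 3 libraries, was without replicate 2. The count of nuclear copies with a peak was 0 in all 10 settings run. No paired analysis was possible because the control libraries gave no values here, so replicate numbers pair nothing. Counts over peaks and genes of 1 chromosome are not independent, and with unknown depth a missing peak does not show a missing signal.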
